A study of Mus musculus with 4 samples.

Results

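*Dach1* and *Dach2*, the mouse dachshund genes, were followed across the cell types of the *Tbx1* lineage. Within each replicate they were also compared between embryos with 1 and with both copies of *Kmt2d* floxed for deletion in that lineage. They are 2 of the 32285 genes counted, and each was found by its symbol on a single row of the 4 count matrices. Both were chosen by measured values of these libraries: *Dach1* by its higher level in the endothelium of the mutant, and *Dach2* by its level in a mesoderm population. Those patterns are therefore given as descriptions without a test. In GENCODE M21 on GRCm38, *Dach1* (ENSMUSG00000055639) spans 382.913 kb of the minus strand at chr14:97786853-98169765. *Dach2* (ENSMUSG00000025592) spans 538.877 kb of the plus strand at chrX:113297510-113836386 and is thus X-linked. The pseudogene *Gm16331* and the small RNA genes *Gm25831* and *Gm24831* lie inside these spans and were not analysed here.

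DACH proteins are nuclear cofactors that share a SKI/DACH domain with the SKI family and recruit corepressor complexes to chromatin. They work with the EYA coactivators in a network of developmental regulators that acts in sensory placodes, cranial ganglia, kidney and muscle. *Dach1* is also known in vascular biology, where it promotes the migration of arterial endothelial cells and artery growth, and *Dach2* is known in skeletal muscle as a repressor of myogenin.

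Droplet 3' single-cell RNA sequencing was performed on EGFP-positive, DAPI-negative cells sorted from the pharyngeal region and heart at E9.5. The labels give the strain as outbred SwissWebster, and the study's methods describe mice of mixed Swiss Webster and C57BL/6 background. Conditional heterozygotes (cHet) were Tbx1 Cre/+; Kmt2d F/+; GFP F/+, and conditional knockouts (cKO) were Tbx1 Cre/+; Kmt2d F/F; GFP F/+. The Cre gene is knocked into *Tbx1*, so that both genotypes were also heterozygous for *Tbx1*, and only cells with a history of *Tbx1* expression were recombined and sorted. Each genotype had 2 libraries. A Rep1 library pooled 4 embryos and used the Next GEM v3.1 kit, and a Rep2 library pooled 3 embryos and used the GEM-X kit, so that replicate, kit and sequencing cannot be told apart. Single embryos cannot be traced within a pool. The study's somite ranges differed between the genotypes in each replicate. In Rep1 the cKO range lay inside the cHet range, and in Rep2 it began where the cHet range ended. The pools were thus not matched exactly in stage, and the part of stage in the genotype differences was not tested.

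After filtering, 33448 cells remained: 5869 in cHet Rep1, 9350 in cHet Rep2, 6291 in cKO Rep1 and 11938 in cKO Rep2. The kept cells held 124259137, 203791528, 154440770 and 210797838 unique molecular identifiers (UMIs) in that order, with a median between 17240.5 and 22972 per cell. The cHet Rep1 library stood apart, with 37093 barcodes and only 60.0% of its UMIs in kept cells, against 86.1% to 91.6% in the others. Libraries of the same replicate shared 87 (Rep1) and 71 (Rep2) barcodes, and no other pair shared any. The 3' count of *Kmt2d*, 17.4 and 23.9 CPM (counts per library total) in the cHet libraries against 15.2 and 21.0 in the cKO libraries, does not check the deletion, since counts from the 3' end of a transcript need not reflect the floxed exons. Clustering without *Dach1* and *Dach2* gave 26 clusters, of which 17 carried enough markers for a name: neuronal, epithelium, endothelium, anterior second heart field (aSHF), posterior second heart field (pSHF), cardiac muscle, multilineage primed progenitors (MLPs), branchiomeric muscle (BrM) and mesenchyme. These names mean cells like that type by its markers. The other 9 clusters, with 16074 cells, stayed unnamed.

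*Dach1* was detected in nearly every lineage and among the named types was highest in neuronal cells and lowest in the endothelium. A level is given as CPM of the UMIs summed over all cells of a type in a library, and levels are compared only within a gene. In neuronal cells *Dach1* reached 696 and 1412 CPM in cHet Rep1 and Rep2, and 838 and 1504 CPM in cKO Rep1 and Rep2. This was the highest level of any named type in all 4 libraries. Over the 4 libraries the mean was 1113 CPM in neuronal cells, 676 in cardiac muscle, 651 in MLPs, 625 in the aSHF, 559 in the pSHF, 455 in the mesenchyme, 439 in the unnamed clusters, 425 in the epithelium, 210 in BrM and 108 in the endothelium. The first and the last 2 steps of this order held in 4 of 4 libraries, as did the steps from aSHF to pSHF and from pSHF to mesenchyme. Cardiac muscle and MLPs kept their order in 3 of 4 libraries with a mean difference of 0.0032 ± 0.27 on the log2 scale (SD), and MLPs and aSHF, or mesenchyme and unnamed clusters, also in 3 of 4. Unnamed clusters and epithelium kept it in 2 of 4, so that these neighbours did not differ beyond their spread.

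Within the named types *Dach1* varied further. Of the neuronal clusters, cluster 20, led by *Neurod1*, *Nefm* and *Tubb3*, held 737 to 1637 CPM, and cluster 23, led by the progenitor genes *Hes5* and *Fabp7*, held 607 to 822. Cluster 23 supplied 103 and 159 neuronal cells in the Rep1 libraries but 24 and 33 in the Rep2 libraries. Its neuronal name was not stable: with doublets kept or with the members among the variable genes, the cluster with these leading genes was named MLP, and 71.0% and 71.2% of neuronal cells kept their type. In the epithelium the otic vesicle, the precursor of the inner ear, was highest at 568 to 995 CPM, followed by ectoderm at 258 to 458 and endoderm at 124 to 315. Among muscle progenitors, BrM cluster 14, the only cluster of the type with *Myod1*, the myogenic determination factor, among its markers, held 64.7 to 111 CPM, against 178 to 378 in cluster 15 and 248 to 457 in cluster 11. *Dach1* was thus lowest in the *Myod1*-marked cluster of BrM in each library, where it lay below its level in the barcodes with under 1000 UMIs of the same library.

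**Figure D1:**
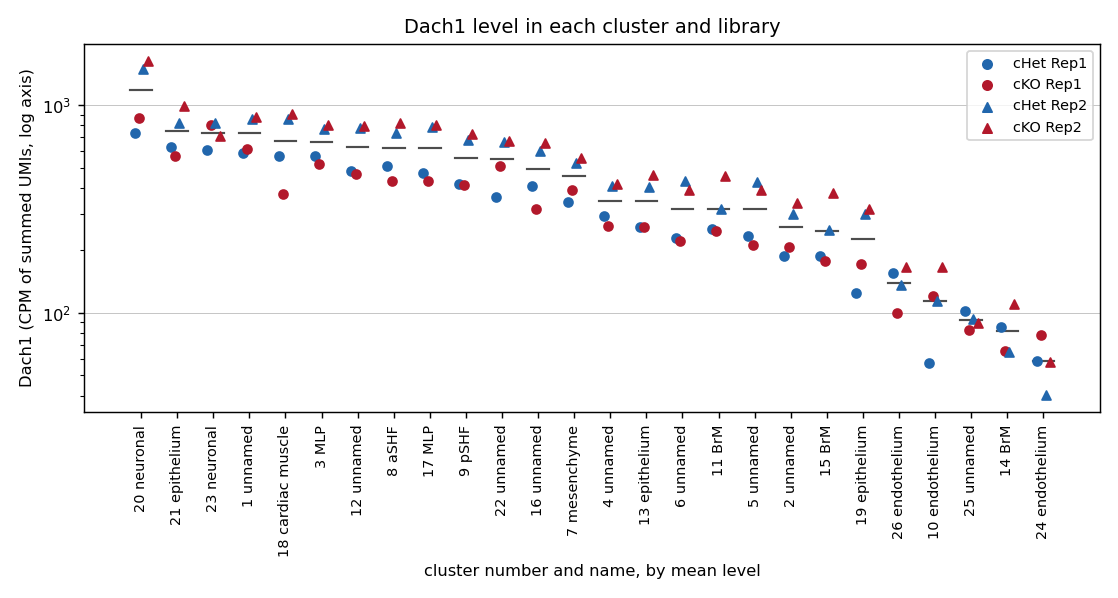
*Dach1* level in each of the 26 clusters, in CPM on a log axis, with 1 point per library. Neuronal cluster 20 sits at the top, with 737 to 1637 CPM, and the endothelial clusters 10, 24 and 26 are among the lowest.

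*Dach2* was concentrated in 3 clusters, of which cluster 7 was named mesenchyme and clusters 1 and 16 carried no name. Its level was 484 and 552 CPM in cHet and 533 and 652 CPM in cKO in cluster 1, the largest cluster with 4011 cells, in which *Dach2* itself, *Pcdh9*, *Lsamp* and *Astn2* are leading genes. Cluster 7, named mesenchyme by *Tbx18*, *Foxc1* and *Foxc2*, held 470 and 486 CPM in cHet and 583 and 675 CPM in cKO. Cluster 16, led by *Foxd1*, *Lum* and *Tbx18*, held 348, 438, 296 and 526 CPM in cHet Rep1, cHet Rep2, cKO Rep1 and cKO Rep2. These 3 clusters were the highest of all, while clusters 4 and 12, both unnamed, held 204 to 287 and 146 to 215 CPM and the otic vesicle 126 to 224. Cluster 1 held the 6 mesenchyme markers at a summed 965 to 1168 CPM, against 897 to 1181 in cluster 7 and 781 to 1010 over all cells, and the 7 epithelial markers at 3.58 to 5.09 CPM and the 8 endothelial markers at 33.0 to 52.0 CPM. Cluster 1 alone supplied 34.5% and 40.1% of all *Dach2* UMIs in cHet and 44.4% and 38.3% in cKO.

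Across types *Dach2* spread widely. Mean levels were 553 CPM in the mesenchyme, 218 in the unnamed clusters together, 124 in neuronal cells, 90.1 in MLPs, 77.1 in the epithelium, 74.3 in the pSHF, 19.7 in BrM, 18.7 in the aSHF, 17.4 in the endothelium and 10.7 in cardiac muscle. The order from mesenchyme down to epithelium and the step from pSHF to BrM held in 4 of 4 libraries. Epithelium and pSHF, BrM and aSHF, and endothelium and cardiac muscle kept their order in 3 of 4 libraries, and aSHF and endothelium in 2 of 4. The otic vesicle was again the high point of the epithelium, with 126 to 224 CPM of *Dach2* against 31.2 to 42.3 in the ectoderm and 24.3 to 47.2 in the endoderm. The heart fields, which were close in *Dach1*, stood apart in *Dach2*: the pSHF held 66.7 to 78.9 CPM and the aSHF 13.9 to 21.9.

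**Figure D2:**
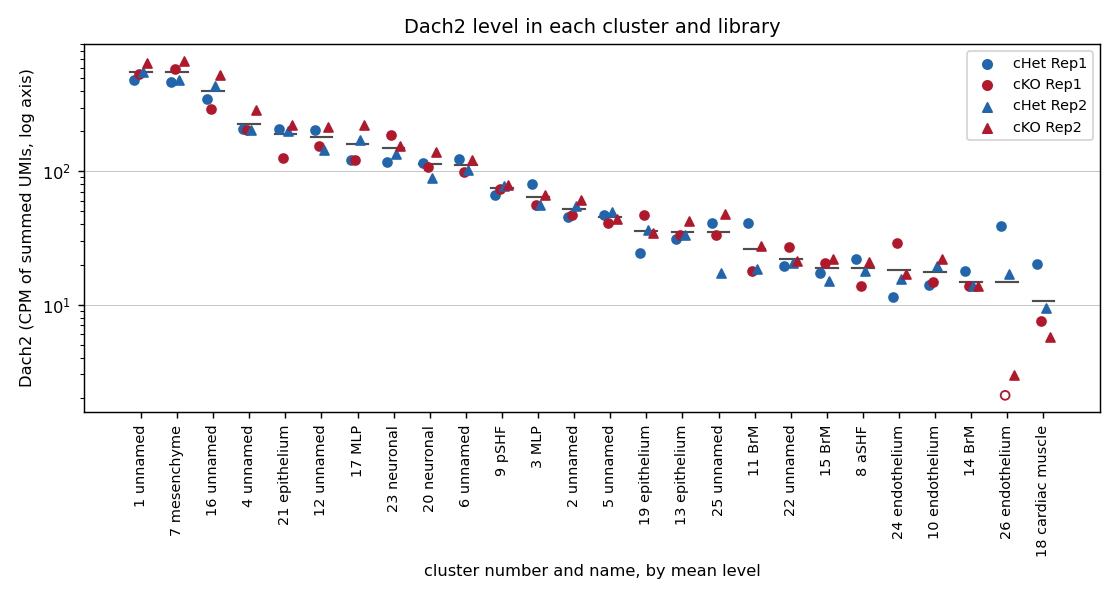
*Dach2* level in each of the 26 clusters, in CPM on a log axis, with 1 point per library. Clusters 1, 7 and 16 stand above the rest, at 296 to 675 CPM, and cardiac muscle is near the bottom with 5.68 to 20.2 CPM.

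When every cell was thinned to 5000 UMIs, which puts libraries and types on the same depth, a *Dach1* UMI was found in 85.6% to 97.0% of neuronal cells and in 24.5% to 32.5% of endothelial cells. A *Dach2* UMI was found in 73.2% to 77.5% of the cells of cluster 1 and in 2.07% to 10.2% of cardiac muscle cells, the type with the lowest level. Without thinning the values for *Dach2* were 88.7% to 91.5% and 8.26% to 17.2%. In barcodes with under 1000 UMIs, which can hold free RNA, *Dach1* was at 124 to 223 CPM and *Dach2* at 38.3 to 93.8 CPM. The *Dach2* levels of BrM, aSHF, endothelium and cardiac muscle lie below those values, so no expression is read from a low share of cells with a *Dach2* UMI in these types. In cHet Rep1, with 93.8 CPM in such barcodes, *Dach2* was also lower in ectoderm (31.2), endoderm (24.3), the whole epithelium (74.2), pSHF (66.7) and MLPs (92.5). The ectoderm lay below these barcodes in each of the other libraries as well, such as cKO Rep1 (33.1 against 38.3) and cHet Rep2 (33.5 against 51.5). The endoderm also lay below them in cHet Rep2 (36.5 against 51.5) and in cKO Rep2. It lay above them only in cKO Rep1 (47.2 against 38.3). The *Dach1* level of the endothelium likewise lies below that of these barcodes in its own library in 3 of 4 libraries and above it only in cKO Rep2. In the same barcodes *Dach1* was lower in cKO, at 124 and 138 CPM, than in cHet, at 223 and 189 CPM. *Dach2* was lower there in cKO as well, at 38.3 and 48.1 CPM against 93.8 and 51.5 CPM in cHet. How much free RNA contributed to the endothelial counts was not tested.

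The paralogs overlapped most in cluster 1, where 64.2% and 68.7% of cHet cells and 69.0% and 73.5% of cKO cells held a UMI of both genes after thinning. *Dach1* was found in 87.7% to 95.1% of the *Dach2*-positive cells of this cluster and in 71.5% to 86.1% of the *Dach2*-negative cells. In cluster 7 a larger part of the cells had *Dach2* without *Dach1*, from 18.5% to 28.0%. At this thinned depth neuronal cells and aSHF cells were mostly *Dach1* only, at 56.1% to 65.9% and 68.2% to 81.5%. For neuronal cells this depends on depth. Without thinning a *Dach2* UMI was found in 52.8% of them in cHet Rep1, 55.3% in cHet Rep2 and 57.1% in cKO Rep1. In the endothelium 63.4% to 71.7% of cells held neither. Over the 26 clusters the log2 levels of the paralogs had a Pearson correlation of 0.55, a description over clusters that share libraries.

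**Figure D3:**
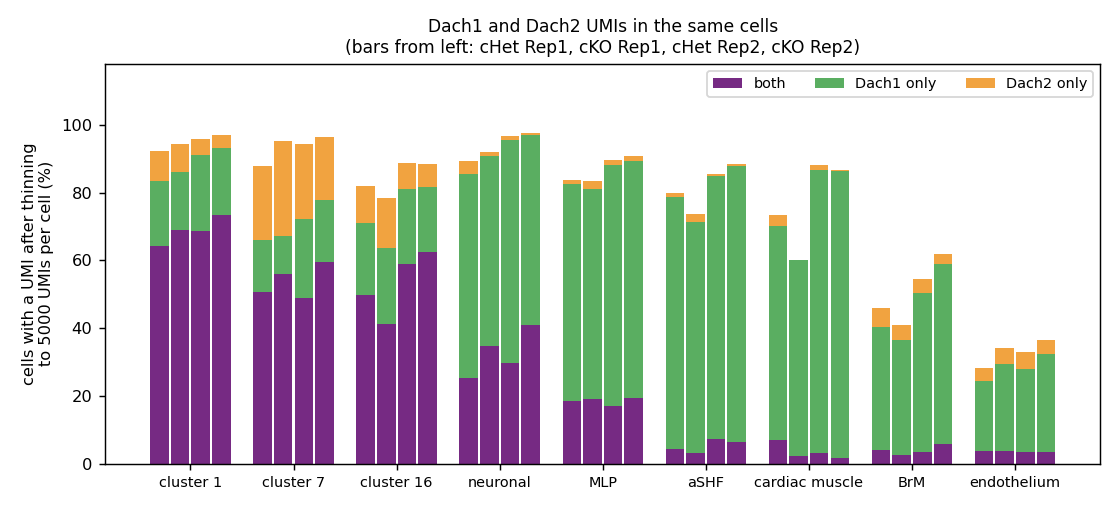
Percent of cells, thinned to 5000 UMIs, with a UMI of *Dach1* only, of *Dach2* only or of both, by cluster or type and library. Cells with both genes make up 64.2% to 73.5% of cluster 1, whereas aSHF cells are mostly *Dach1* only.

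Of 11604 genes compared over the 26 clusters, those closest to *Dach1* in level were *C9orf72* (r = 0.81), the transcription factor gene *Sp4* (0.81), *Enah* (0.79), which encodes an actin regulator, *Angpt1* (0.79), the ligand of the endothelial receptor TEK, *Porcn* (0.79), which lipid-modifies Wnt ligands, and *Pgap1* (0.79). The closest to *Dach2* were *Astn2* (r = 0.85), which encodes an astrotactin, *Rab23* (0.78), a negative regulator of hedgehog signaling, *Idh1* (0.77), *Gm12829* (0.75), *Nrg3* (0.75), an ERBB4 ligand, and *Tmx3* (0.75). *Astn2* ranged from 3.63 CPM in its lowest cluster to 324 CPM in cluster 1, as the mean of the libraries. Cluster 1 also had the highest mean of *Dach2*, at 555 CPM, but cluster 7 was close to it at 553 CPM. These correlations describe cell groups from the same 4 libraries.

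In the endothelium *Dach1* was higher in cKO than in cHet within each replicate. Its level was 66.3 CPM in cHet Rep1, 103 in cHet Rep2, 114 in cKO Rep1 and 147 in cKO Rep2, from 445, 526, 275 and 664 cells. In these sums of UMIs the genotypes did not overlap, and the share of all genes for which this holds is not given here. The Rep2 libraries held more *Dach1* in each genotype. After scaling with the trimmed mean of M values (TMM) the difference was 0.80 in Rep1 and 0.52 in Rep2 on the log2 scale, a mean of 0.66 ± 0.20 (SD, n = 2 replicates). No test was made because this difference was what chose the gene. As its size among the rest, 77 of the 13041 genes tested in the endothelium (0.59%) were higher in both replicates by at least the smaller *Dach1* difference, and edgeR called 0.0383% of them at an adjusted p under 0.05 in either direction.

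The 3 endothelial clusters did not contribute equally. Cluster 10, the largest with 1403 cells and led by *Emcn*, *Cdh5* and *Aplnr*, went from 57.2 and 115 CPM in cHet to 120 and 166 CPM in cKO, a log2 difference of 1.07 in Rep1 and 0.53 in Rep2. Cluster 24, named progenitor endothelium by *Etv2*, *Tal1* and *Lmo2*, had 58.6 and 40.1 CPM in cHet and 78.6 and 57.9 CPM in cKO, and here cKO Rep2 lay below cHet Rep1. Within each replicate its log2 difference was 0.42 and 0.51. Cluster 26 held more of the arterial markers *Gja4*, *Gja5*, *Hey1* and *Dll4* than the rest of the endothelium. It was given no arterial name, since *Tbx20*, *Gata4* and *Tmem100*, known from the heart and its endocardium, also lead it, and since the 6 pSHF markers summed there to 108, 200, 0 and 237 CPM in cHet Rep1, cHet Rep2, cKO Rep1 and cKO Rep2, against 1.40 to 5.30 in cluster 10. In cHet Rep1 its 8 endothelial markers summed to 1429 CPM, against 3769 to 3876 in the other libraries. It had the highest *Dach1* of the endothelium in cHet, at 155 and 136 CPM, and held 167 CPM in cKO Rep2. In cKO Rep1 it had only 2 cells with 4 *Dach1* UMIs, so its 99.8 CPM has a 95% exact Poisson interval of 27.2 to 256, which covers counting error only.

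Cluster 26 made up 14.4%, 12% and 13.4% of the endothelium in cHet Rep1, cHet Rep2 and cKO Rep2 but 0.727% in cKO Rep1. Without it the endothelium held 57.4 and 98.7 CPM in cHet and 114 and 145 CPM in cKO, log2 ratios of 1.00 in Rep1 and 0.55 in Rep2. The difference was smaller in cells thinned to 5000 UMIs, which sets a common depth and also gives each cell the same weight. *Dach1* was then detected in 24.5% and 27.9% of cHet and 29.5% and 32.5% of cKO endothelial cells, at 84.5 and 111 CPM in cHet and 101 and 157 CPM in cKO, and the fitted log2 difference was 0.40 against 0.65 without thinning. Without thinning the mean of the CPM of single cells was 79.3 and 115 in cHet and 111 and 159 in cKO. By both of these measures the genotypes overlapped, since cKO Rep1 lay below cHet Rep2, while within each replicate cKO was higher. With cells down to 1000 genes it was 0.38.

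Other measured features of the endothelium are given beside this difference. The summed level of the 8 endothelial markers was 2795 and 4192 CPM in cHet and 2952 and 4239 CPM in cKO, and thus differed more between replicates than between genotypes. The 7 neuronal markers, from cells with the highest *Dach1*, summed to 24.9 and 34.3 CPM in cHet and 16.4 and 69.6 CPM in cKO, and the 7 cardiac muscle markers to 39.4, 43.1, 17.4 and 38.7 CPM in cHet Rep1, cHet Rep2, cKO Rep1 and cKO Rep2. Neither list was higher in cKO in both replicates over the whole endothelium, but in cluster 10 the neuronal list was, at 13.7 and 12 CPM in cHet and 14.0 and 23.6 CPM in cKO. The 7 MLP markers, of another *Dach1*-high type, summed to 15.2 and 17.9 CPM in cHet and 15.7 and 19.1 CPM in cKO, and in cluster 10 to 3.28 and 7.14 against 8.72 and 8.08 CPM. The 6 pSHF markers in cluster 10 summed to 2.46 and 1.40 CPM in cHet and 3.61 and 5.30 CPM in cKO. In cluster 24 the neuronal list was at 25.3 and 17.4 CPM in cHet and 27.9 and 35.6 CPM in cKO. The MLP list was there at 51.3 and 56.1 CPM in cHet and 61.7 and 58.9 CPM in cKO. In the same cluster the cardiac muscle list was lower in cKO in both replicates, and the pSHF list went opposite ways. The part of such RNA in the *Dach1* difference was not tested. The 7 endoderm markers summed to 88.0 and 89.4 CPM in cHet and 88.7 and 91.4 CPM in cKO. They include *Hhex*, a leading gene of cluster 24, where the list summed to 157 to 195 CPM with *Foxa1*, *Foxa2* and *Foxe1* at 0. No endoderm RNA is therefore read from this sum. The 8 aSHF markers summed to 86.7 and 90.3 CPM in cHet and 61.9 and 102 CPM in cKO. The 6 mesenchyme markers summed to 142 and 129 CPM in cHet and 103 and 126 CPM in cKO, and all of their genes were detected. Of the 5 macrophage markers *C1qa* and *Ptprc* were at 0 in every library.

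The pools also differed in sex. Of the cells that could be classed by *Xist* or by Y-linked UMIs, 75.8% and 68.3% in cHet and 68.4% and 60.7% in cKO held *Xist*. In endothelial cells with *Xist* the ratio of *Dach1* in cKO over cHet was 1.82 in Rep1 and 1.37 in Rep2. In those with Y-linked UMIs it was 2.80 and 1.66, so *Dach1* was higher in cKO in both of these classes. In the endothelial cells that could not be classed it was lower in cKO, at 104 and 76.9 CPM against 105 and 91.5 CPM in cHet. These were 86 and 56 cells in cHet and 31 and 61 cells in cKO. The part of sex in the *Dach1* difference was not tested.

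**Figure D4:**
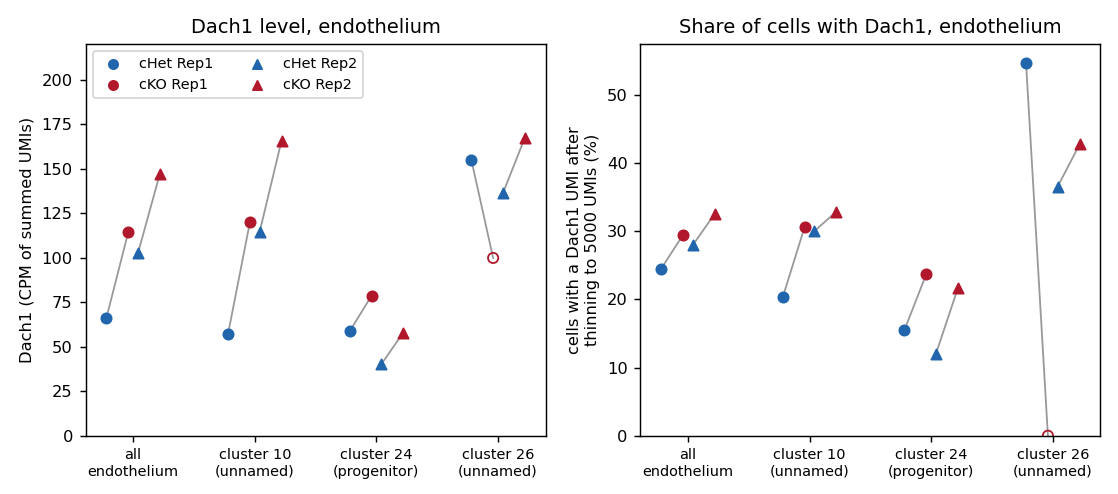
*Dach1* level in CPM (left) and percent of cells with a *Dach1* UMI after thinning to 5000 UMIs (right) in the whole endothelium and its clusters 10, 24 and 26, with 1 point per library and a line joining the genotypes of a replicate. In the whole endothelium the cKO libraries, at 114 and 147 CPM, lie above the cHet libraries, at 66.3 and 103. In cluster 26 the open cKO Rep1 point rests on 2 cells.

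Outside the endothelium no genotype difference of *Dach1* passed the test. edgeR's quasi-likelihood test on sums per library, with the replicate as a block, called *Dach1* in 0 of 10 groups at a Benjamini-Hochberg adjusted p under 0.05. Unadjusted p was under 0.05 in 2 of them, and DESeq2 called *Dach1* in 0. Adjusted p ran from 0.744 to 1.00. The test called 0% of all genes over all cells, 0.0282% in the epithelium, 0.529% in the aSHF, 0.319% in cardiac muscle, 0.331% in the pSHF, 0.537% in MLPs, 0.514% in BrM, 0% in neuronal cells (699 genes at an unadjusted p under 0.05 and 3 in DESeq2), 2.38% in the mesenchyme and unnamed clusters together and 1.15% in cluster 1. Over all cells *Dach1* was at 362 and 539 CPM in cHet and 359 and 566 CPM in cKO, with a fitted log2 difference of 0.06 ± 0.05 (SE).

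The largest positive fitted values were in neuronal cells and the epithelium. Neuronal *Dach1* was higher in cKO within each replicate, and its log2 difference was 0.20 ± 0.07 (SE, adjusted p = 0.744 in edgeR). Within cluster 20 the log2 difference was 0.26 in Rep1 and 0.14 in Rep2, and within cluster 23 it was 0.39 and -0.15. Cluster 23 supplied 103 of 284 neuronal cells in cHet Rep1 and 159 of 296 in cKO Rep1. Epithelial *Dach1* was at 327 and 474 CPM in cHet and 351 and 549 CPM in cKO, a log2 difference of 0.17 ± 0.06 with an adjusted p of 0.996 in edgeR. In Rep1 the makeup of the epithelium differed, with 261 ectoderm, 87 endoderm and 100 otic vesicle cells in cHet against 108, 65 and 90 in cKO. Within these clusters *Dach1* went from 260 to 258, from 124 to 172 and from 628 to 568 CPM in Rep1. In Rep2 the cells numbered 220, 186 and 132 in cHet and 514, 314 and 270 in cKO, and *Dach1* went from 405 to 458, from 298 to 315 and from 816 to 995 CPM. In cardiac muscle the replicates went opposite ways, from 572 to 375 CPM in Rep1 and from 853 to 902 in Rep2, and cKO Rep1 had only 45 cells of this type. In BrM they did so as well, from 165 to 135 CPM in Rep1 and from 228 to 312 in Rep2. The cHet Rep1 values of endoderm (124) and BrM (165) lay below the 223 CPM of *Dach1* in that library's barcodes with under 1000 UMIs. In cKO Rep1 both lay above the 124 CPM of such barcodes. The part of free RNA in these differences was not tested. Over the 26 clusters *Dach1* was higher in cKO in both replicates in 8, lower in both in 2 and of opposite sign in 16.

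*Dach2* was higher in cKO over all cells, but no *Dach2* difference within a group passed the test. Over all cells it was at 133 and 144 CPM in cHet and 165 and 181 CPM in cKO. The log2 difference was 0.36 in Rep1 and 0.34 in Rep2 after TMM scaling. The fitted value of 0.35 ± 0.05 (SE) had an adjusted p of 0.232 in edgeR, which called 0% of genes in this comparison, while 1139 of its 20126 genes had an unadjusted p under 0.05 and DESeq2 called 63. Of the 11 groups edgeR called *Dach2* in 0, with an unadjusted p under 0.05 in 5, and DESeq2 called it in 1, all cells. The call depended on the filter on low counts: with every gene tested, edgeR called *Dach2* over all cells, in neuronal cells, in the mesenchyme and unnamed clusters and in cluster 1, and over the alternatives its adjusted p over all cells ran from 0.000761 to 1.00.

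The Rep1 part of this difference moved with the share of *Dach2*-high cells. Clusters 1, 7 and 16 made up 17.6% of cells in cHet Rep1 and 24.6% in cKO Rep1, against 18.4% and 19.2% in Rep2. With the share of each cluster held at its mean over the libraries, the log2 ratio went from 0.31 to 0.03 in Rep1, and from 0.33 to 0.30 in Rep2. In Rep1 the *Dach2* total was thus nearly level once cluster shares were equal, and in Rep2 it was not. Over the 26 clusters *Dach2* was higher in cKO in both replicates in 10, lower in both in 3 and of opposite sign in 13.

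Within the mesenchyme and unnamed clusters together the log2 difference was 0.05 in Rep1 and 0.39 in Rep2, and the fitted 0.22 ± 0.06 (SE) had the lowest adjusted p of any group, 0.0612 in edgeR. In cluster 1 the values of 484 and 552 CPM in cHet and 533 and 652 CPM in cKO overlapped, since cKO Rep1 lay below cHet Rep2. Within replicates cluster 1 was higher in cKO by 0.13 and 0.26, with a fitted 0.20 ± 0.06 and an adjusted p of 0.218 in edgeR. Both clusters were picked for their *Dach2* level, with means over the libraries of 555 CPM in cluster 1 and 553 CPM in cluster 7. Cluster 1, the highest, was tested for its genotype difference. Cluster 7, singled out after its values were seen, was not: it was higher in cKO by 0.30 in Rep1 and 0.48 in Rep2. In neuronal cells *Dach2* was at 116 and 95 CPM in cHet and 143 and 142 CPM in cKO. The neuronal log2 difference of 0.45 ± 0.10 had an adjusted p of 0.280 in edgeR. Cluster 23 supplied 103 of 284 neuronal cells in cHet Rep1 and 159 of 296 in cKO Rep1. Within cluster 23 *Dach2* was at 117 and 136 CPM in cHet and 186 and 155 in cKO, and within cluster 20 at 116 and 89.2 CPM in cHet and 108 and 140 in cKO. In the endothelium, where *Dach1* stood out, *Dach2* was at 15.9 and 18.4 CPM in cHet and 16.5 and 18.8 CPM in cKO, with a log2 difference of 0.05 ± 0.13 and an adjusted p of 1.00 in edgeR. It turned to -0.22 in thinned cells and to -0.59 with cells of at least 1000 genes.

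Since *Dach2* is X-linked, it was also read within the sex classes. In the mesenchyme and unnamed clusters the ratio of cKO over cHet in cells with *Xist* was 0.918 in Rep1 and 1.22 in Rep2, and in cells with Y-linked UMIs it was 1.33 in both replicates. In cluster 1 it was 0.966 and 1.24 in cells with *Xist* and 1.37 and 1.05 in cells with Y-linked UMIs. In cluster 7 it was 1.08 and 1.25 in cells with *Xist* and 1.83 and 1.57 in cells with Y-linked UMIs. Over all cells it was 1.08 and 1.19 in cells with *Xist* and 1.69 and 1.33 in cells with Y-linked UMIs. In the endothelium, at low *Dach2*, it was 0.957 and 1.33 in cells with *Xist* and 1.54 and 0.764 in cells with Y-linked UMIs. The part of sex in the difference was not tested.

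Cardiac muscle was the type in which *Dach2* was lower in cKO in both replicates. It held 60 UMIs in 157 cells in cHet Rep1, 51 in 218 cells in cHet Rep2, 9 in 45 cells in cKO Rep1 and 27 in 242 cells in cKO Rep2, or 20.2, 9.49, 7.53 and 5.68 CPM. The cHet libraries lay above the cKO libraries, but the exact Poisson interval of 3.44 to 14.3 CPM in cKO Rep1 includes the cHet Rep2 value. The log2 difference of -0.95 ± 0.33 had an adjusted p of 0.381 in edgeR, and with doublets kept it turned to 0.17. Barcodes with under 1000 UMIs held more *Dach2* than cardiac muscle and went the same way. They were at 93.8 and 51.5 CPM in cHet and 38.3 and 48.1 CPM in cKO. The part of free RNA in the cardiac muscle difference was not tested. In cluster 26 *Dach2* was at 38.8 and 16.9 CPM in cHet, from 34 and 20 UMIs, and at 2.99 CPM in cKO Rep2, from 4 UMIs. The 2 cells of cKO Rep1 held none, and 3 counts, the limit taken for a count of 0, would be 74.9 CPM there, so that this library gives no direction.

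**Figure D5:**
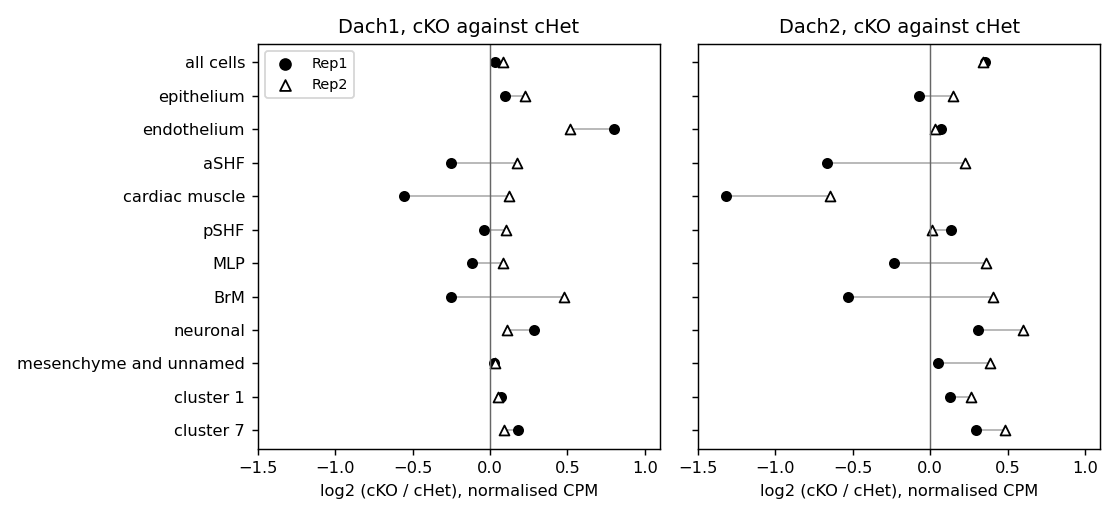
Log2 difference of cKO over cHet for *Dach1* and *Dach2* in each group, with 1 point per replicate. *Dach1* in the endothelium lies at 0.80 and 0.52, and *Dach2* in cardiac muscle at -1.32 and -0.65, while in the aSHF, MLPs and BrM the replicates of each gene lie on opposite sides of 0.

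A direct test asked whether a type responded to genotype differently from all other cells, with the library as a block. Its model also held a type-by-replicate term, for how the type differed between replicates. For *Dach2* the response was lower in the aSHF by 0.50 on the log2 scale (adjusted p = 0.0107 in edgeR), in cardiac muscle by 1.28 (adjusted p = 0.0012) and in the pSHF by 0.27 (adjusted p = 0.0415). The same test called 0.831%, 0.485% and 1.02% of all genes in these types. In the aSHF *Dach2* went from 21.9 to 13.9 CPM in Rep1 and from 18.0 to 21.0 in Rep2, and in the pSHF from 66.7 to 74.1 and from 77.8 to 78.9, against 133 to 165 and 144 to 181 over all cells. The sum of other cells moves with their shares as well as with levels: over all cells the Rep1 log2 ratio of 0.31 was 0.03 with cluster shares held, and the median *Dach2* difference over the 26 clusters was -0.07 in Rep1 and 0.24 in Rep2. A lower response here is therefore not shown to be particular to a type, and how much of it moved with cell shares was not tested. In aSHF cells of cHet Rep1 a single cell held 54 of the 184 *Dach2* UMIs. The *Dach2* levels of the aSHF and of cardiac muscle, 13.9 to 21.9 and 5.68 to 20.2 CPM, lie below the 38.3 to 93.8 CPM of barcodes with under 1000 UMIs, and the part of free RNA in these differences was not tested. Those 3 calls were lost in DESeq2, without the type-by-replicate term and in thinned cells. The aSHF difference also lost its call without cHet Rep1 (-0.33) or cKO Rep1 (-0.30), and the cardiac muscle difference without cHet Rep1 (-0.92) or cKO Rep2 (-1.16) and with doublets kept (-0.16). The pSHF difference lost it without any 1 of the 4 libraries, at -0.31 to -0.18. *Dach2* passed this test in no other type: the epithelium (0.105% of genes called), the endothelium (1.11%), MLPs (0.291%), BrM (0.0267%), neuronal cells (0.388%), the mesenchyme and unnamed clusters (0.541%) or cluster 1 (0.972%). The response of *Dach1* was called in 0 of 9 types tested with edgeR, with an unadjusted p under 0.05 in 4, and the endothelium was not among them.

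Among the genes of the EYA partners, *Eya1* to *Eya4*, edgeR called a single test, *Eya4* higher in MLPs (log2 0.27 ± 0.06, adjusted p = 0.0136), where 0.537% of all genes were called, and DESeq2 called none. In the same cells *Eya2* had a log2 difference of -0.38 ± 0.11 with an adjusted p of 0.155 in edgeR. In cluster 1, which had the highest mean *Dach2*, *Eya1* was at 242 and 401 CPM in cHet and 246 and 391 CPM in cKO. In the endothelium, where *Dach1* was higher, *Eya1* was at 37.6 and 27.8 CPM in cHet and 20.5 and 26 CPM in cKO, with a log2 difference of -0.45 ± 0.16 and an adjusted p of 0.848 in edgeR. Of 40 tests of Pax factors, 34 of the other SKI/DACH-domain genes and 66 of corepressor partners such as *Ncor1*, *Sin3a* and *Hdac1*, edgeR and DESeq2 called none, beside 0% to 2.38% of all genes called per group by edgeR, and 10, 1 and 2 tests had an unadjusted p under 0.05 in edgeR.

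Among the arterial, venous and shear-responsive genes, from the vascular setting of *Dach1*, few were called. Of 14 arterial genes in the endothelium, 12 had a positive log2 difference with a median of 0.13, beside a median of -0.0028 for all 13041 genes tested, and 0 were called by edgeR or DESeq2, with 1 unadjusted p under 0.05. The 8 arterial markers went opposite ways in the replicates, from 243 to 219 CPM in Rep1 and from 472 to 568 in Rep2, and cluster 26, which is high in them, was at 0.727% of the endothelium in cKO Rep1. *Gja5*, the arterial connexin, had the lowest adjusted p of the list there (log2 0.55 ± 0.24, adjusted p = 0.997). Of 119 tests of arterial genes in 11 groups 3 tests, of 2 genes, were called higher: the VEGF coreceptor *Nrp1* in the pSHF (0.40 ± 0.08), and the ephrin *Efnb2* in the mesenchyme and unnamed clusters (0.22 ± 0.05) and in cluster 1 (0.31 ± 0.06), whose cells are part of that group. Of all genes 0.331%, 2.38% and 1.15% were called in these groups, so nothing particular to the list is read from its count. DESeq2 called none of the arterial or venous genes in any group. Of 48 tests of venous genes 1 was called higher, *Nrp2* in cluster 1 (0.37 ± 0.07). In the endothelium *Nrp2* had a log2 difference of -0.09 and was not called. None of 21 tests of the shear-responsive genes *Klf2*, *Klf4* and *Nos3* was called by edgeR or DESeq2, and 0 had an unadjusted p under 0.05.

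Only some genes of muscle formation, the setting of *Dach2*, are given here, so no direction is read for the list. *Myog*, the myogenin gene, was called higher by edgeR in cardiac muscle, the type lowest in *Dach2*, but that call rests on a single library: cKO Rep1 held 95 *Myog* UMIs in its 45 cells, cHet Rep1 held 10, and both Rep2 libraries held 0. edgeR also called *Tcf21* higher in MLPs (log2 0.34 ± 0.07) and *Msc* in BrM (0.46 ± 0.08), both transcription factors of branchiomeric muscle progenitors. DESeq2 called none of *Myog*, *Tcf21* and *Msc*. Of all genes edgeR called 0.319% in cardiac muscle, 0.537% in MLPs and 0.514% in BrM. The X- and Y-linked genes had 15 of 55 tests called higher, all of them of Y-linked genes.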

How the data were processed

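The authors aligned 3' reads of 4 libraries with Cell Ranger and deposited raw UMI counts per gene and barcode. Per the labels the version was 8.0.1 with mm10; the file headers name 7.0.1 for Rep1. Whether intronic reads were counted is not given in the sources used here. Barcodes with at least 3000 genes, at most 10% mitochondrial and 5% hemoglobin UMIs were kept, and the cells with the highest Scrublet scores, up to the expected doublet rate, were removed (358 to 637 per library, 4.03% to 5.78%), since its automatic threshold marked too few in Rep1. Cells were clustered with scanpy 1.11.5 (2000 variable genes without the members, 30 components, Leiden resolution 0.8). A type name needed 3 markers. No deposited annotation was used, so types may differ from the study's.

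Counts were summed per library and type and tested with edgeR 4.0.16 (quasi-likelihood, TMM, replicate as a block, Benjamini-Hochberg over all genes of the group, threshold 0.05). DESeq2 1.42.0 was an alternative. The replicate number marks a shared kit and pairs the libraries: deviations from the genotype means correlated between same-numbered libraries at 0.66 to 0.85. The 2 libraries of a genotype are separate pools of embryos. Scripts were tested on simulated data. Depth was 124259137 to 210797838 UMIs per library, and intervals cover counting error only.

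Members, lists and genes described were chosen with earlier results of these data known. Named beside them are some of the list genes that passed the test and up to 4 others with values per list. The 6 genes most correlated with each member over clusters, among those with at least 10 CPM in a cluster, are also named. *Myog* library counts and clusters 7 and 26 were singled out after their values were seen. The marker rule alone would call cluster 26 arterial. Some genes of the lists on *Dach1* and *Dach2* partners and on muscle formation are not reported here, so no counts are given for those lists.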

Additional observations from a re-analysis of the deposited data

Results flagged for a closer look

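Of the differences of response tested, 10 of *Dach2* and 9 of *Dach1*, 3 passed the test of the difference itself. All 3 were of *Dach2* and lower in the type than in the other cells. The log2 difference between cKO and cHet was lower than that of all other cells in the aSHF (difference of -0.50), in cardiac muscle (-1.28) and in the pSHF (-0.27). The same edgeR test called 0.831%, 0.485% and 1.02% of all genes in these types. All 3 calls were lost in DESeq2, without the type-by-replicate term and in thinned cells. The value of the other cells moves with their shares: over all cells the Rep1 log2 ratio of *Dach2* was 0.31, and 0.03 with cluster shares held, so that a response particular to a type is not shown. In cardiac muscle it rests on 60, 51, 9 and 27 *Dach2* UMIs in cHet Rep1, cHet Rep2, cKO Rep1 and cKO Rep2. These counts, and those of the aSHF, give levels of 5.68 to 20.2 and 13.9 to 21.9 CPM, below the 38.3 to 93.8 CPM in barcodes with under 1000 UMIs, and in aSHF cells of cHet Rep1 a single cell held 54 of the 184 *Dach2* UMIs. In the aSHF the replicates had opposite signs within the type, -0.67 in Rep1 and 0.22 in Rep2, and in the pSHF the values within the type were 0.13 and 0.01.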

How the results depend on the processing

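Values are log2 differences of cKO over cHet. *Dach1* in the endothelium stayed positive under every alternative run, from 0.55 to 0.80 with 1 library left out, and was 0.40 in thinned cells and 0.38 with cells of at least 1000 genes. With 1 library left out, the range for *Dach1* was -0.34 to 0.55 in BrM, -0.19 to 0.16 in MLPs, -0.34 to 0.26 in the aSHF, -0.13 to 0.22 over all cells, -0.74 to 0.28 in cardiac muscle, -0.036 to 0.16 in cluster 1, -0.0032 to 0.33 in the epithelium, -0.17 to 0.22 in the mesenchyme and unnamed clusters, -0.14 to 0.58 in neuronal cells and -0.22 to 0.27 in the pSHF. For *Dach2* it was -0.56 to 0.41 in BrM, -0.19 to 0.32 in MLPs, -0.53 to 0.11 in the aSHF, -0.044 to 0.15 in the endothelium, -0.092 to 0.18 in the epithelium and -0.048 to 0.20 in the pSHF. *Dach2* stayed positive over all cells (0.22 to 0.44), in cluster 1 (0.12 to 0.28), in the mesenchyme and unnamed clusters (0.09 to 0.35) and in neuronal cells (0.16 to 0.77) and negative in cardiac muscle (-1.75 to -0.42). In these groups too the normalised levels of the genotypes do not overlap, so a sign kept with 1 library left out adds no check.

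Signs turned with cells of at least 1000 genes (*Dach1* 0.072 in cardiac muscle and -0.083 in the pSHF, *Dach2* -0.59 in the endothelium and -0.043 in the epithelium), with doublets kept (*Dach1* 0.024 in MLPs and -0.013 in the pSHF, *Dach2* 0.29 in BrM, 0.17 in cardiac muscle, -0.0058 in the endothelium and -0.010 in the pSHF), with the members among the variable genes (*Dach1* 0.058 in MLPs, *Dach2* -0.00085 in the endothelium) and in thinned cells (*Dach1* 0.023 in MLPs and 0.041 in the aSHF, *Dach2* 0.031 in BrM, 0.012 in the aSHF and -0.22 in the endothelium). *Dach2* became a call over all cells in DESeq2 (0.35), in cluster 1 with cells of at least 1000 genes (0.29), and without a filter on low counts over all cells (0.35), in cluster 1 (0.21), in the mesenchyme and unnamed clusters (0.24) and in neuronal cells (0.46). The mean *Dach2* level of the endothelium was 19.6 CPM as a mean over cells and 20.8 in thinned cells, and that of the epithelium 66.5 in thinned cells.

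The called *Dach2* responses, lower in the type than in other cells, lost their call in DESeq2 (-0.53 in the aSHF, -1.28 in cardiac muscle, -0.27 in the pSHF), without the type-by-replicate term (-0.50, -1.46 and -0.27) and in thinned cells (-0.33, -1.66 and -0.32). In the pSHF it was also lost with cells of at least 1000 genes (-0.36), a setting in which only 27.3% of pSHF cells kept that type and the cluster matched to cluster 1 shared 54.5% of the cells in either, and in cardiac muscle with doublets kept (-0.16). With 1 library left out they ran from -0.78 to -0.30, -2.01 to -0.92 and -0.31 to -0.18. The cause of these changes was not tested.

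Dropping the replicate block left 0 genes called in each group, against 0 to 426 with it, and changed no call of a member within a type. With 1 library left out at most 1 gene was called, a setting with no block in which the lone library is assumed to vary like the other genotype. DESeq2 called at most 101 genes, thinned cells 2 to 156, cells of at least 1000 genes 0 to 595, no filter 0 to 696, doublets kept 0 to 171, members among the variable genes 0 to 264. With 2 pools per genotype and kit tied to replicate, small differences, and *Dach2* levels under those of low-UMI barcodes, could not be resolved at this depth.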
